A study of Mus musculus with 4 samples.

Results

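The miRNA content of primary cortical neurons was compared between Day 8 and Day 6 of culture, directly and without reference to earlier days, over every array probe named for a mouse miRNA. There were 1030 such probes, of which 389 (37.8%) gave a background-subtracted signal of at least 300, the detection threshold of the study, on 1 or both of these days. Both cultures were untreated murine neurons from cortices of Swiss albino embryos at gestation day 15, grown in B27-supplemented Neurobasal medium and differing, per the labels, in time in culture alone. Total RNA of separate experiments was pooled per day and labelled with the single dye Hy3, so each day is 1 array among the 4 of the series, Days 2, 4, 6 and 8. No test between days exists, and the spread between cultures cannot be given. Each day also sits on a slide of its own, so slide and day cannot be told apart. Every ± is a technical SD of the difference, combined from the separate SDs of the 4 replicate spots of a probe on each array. Spots at the same position were not paired, so position effects common to both arrays enter the ± and can make spots overlap. A difference is the Day 8 minus the Day 6 level on the log2 scale after quantile normalization, and a signal is background-subtracted intensity before normalization. Each array holds 4 spots per probe, and where all normalized spots of one day lay above all those of the other the spots are called apart.

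MicroRNAs are short RNAs that repress messenger RNAs, which they recognise mainly through the seed, bases 2 to 8 of the mature strand. Members of one family share a seed and so share many targets. A hairpin precursor can yield a mature strand from either side, and in the older naming used on this array the strand held to be less abundant carries an asterisk. On both arrays here, the probes of miR-25* and miR-204* were brighter than those of miR-25 and miR-204. In neurons, miR-124 and miR-9 are abundant and promote the neuronal state, whereas the miR-17-92 cluster and its paralogues are known for promoting proliferation of progenitor cells.

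Mature sequences are shown in 2 sets, chosen from the families and strands that the results below describe. The letters are from RefSeq (GRCm38.p6), 5′ to 3′, with the seed in capitals. Of the detected miRNAs, 98 matched RefSeq by exact name and 28 through the arm that the older name stands for. The first set holds miRNAs that were lower on Day 8 relative to the typical detected miRNA. Of these, miR-17, miR-20a, miR-93, miR-106a and miR-106b share one seed, miR-15a, miR-15b and miR-16 another, and miR-19a and miR-19b the third.
miR-17: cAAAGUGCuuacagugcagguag
miR-20a: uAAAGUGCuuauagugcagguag
miR-93: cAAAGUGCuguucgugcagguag
miR-106a: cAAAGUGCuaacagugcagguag
miR-106b: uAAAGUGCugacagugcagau
miR-15a: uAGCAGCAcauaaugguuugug
miR-15b: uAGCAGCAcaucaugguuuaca
miR-16: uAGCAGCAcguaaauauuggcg
miR-19a: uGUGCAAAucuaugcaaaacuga
miR-19b: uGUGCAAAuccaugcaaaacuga
miR-25: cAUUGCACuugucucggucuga
The second set holds miRNAs that were higher on Day 8 relative to the typical detected miRNA, though spots of miR-29b and miR-29c overlapped between days. In it, the miR-29 members share a seed and miR-25* is the opposite strand of the miR-25 hairpin.
miR-711: gGGACCCGgggagagauguaag
miR-1894-3p: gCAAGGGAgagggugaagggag
miR-30c-1*: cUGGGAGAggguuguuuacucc
miR-706: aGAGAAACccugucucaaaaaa
miR-882: aGGAGAGAguuagcgcauuagu
miR-25*: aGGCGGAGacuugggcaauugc
miR-204*: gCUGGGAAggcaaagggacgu
miR-29a: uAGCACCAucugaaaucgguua
miR-29b: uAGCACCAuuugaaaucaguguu
miR-29c: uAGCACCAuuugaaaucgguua
The strands of miR-17 (chr14:115043684-115043706), miR-19a (chr14:115044048-115044070) and miR-20a (chr14:115044183-115044205) lie on the plus strand in one cluster. The strands of miR-106b (chr5:138165787-138165807), miR-93 (chr5:138165574-138165596) and miR-25 (chr5:138165332-138165353) lie together on the minus strand of chromosome 5, within an intron of Mcm7. The miR-711 strand lies at chr9:108969970-108969991 and that of miR-882 at chr12:109682207-109682228.

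Day 6 and Day 8 differed little for most miRNAs. Of the 389 detected, 380 differed by at most 0.6 in either direction and 303 by at most 0.3. The median difference was -0.07, with quartiles of -0.19 and 0.10, beside a median technical SD of 0.096. By the limit of 0.6 that the study used for a change, 8 miRNAs (2.06%) were higher on Day 8 and 1 (0.257%) was lower. Replicate spots were apart for 78 higher miRNAs (20.1% of those detected) and for 130 lower ones (33.4%), which describes the precision within an array and not between cultures.

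The Day 8 array was the brighter of the pair, and the scaling therefore sets where 0 lies. The median detected miRNA gave 782 on Day 6 and 1103 on Day 8, and the median ratio of signals was 1.33. Detection followed, with 339 mouse miRNAs at 300 or more on Day 6 and 388 on Day 8. All 15 endogenous small RNA controls used were brighter on Day 8, by 0.09 (SNORD38B) to 0.77 (SNORD3@) in log2 without normalization (median 0.25, mean 0.35). In contrast, 4 of the 33 spike-in controls were brighter on Day 8 (median -0.14, mean -0.12). Scaling used the mean of each set, and since the endogenous controls differed, it depends on which of them enter. The median difference of all detected miRNAs was 0.01 under the endogenous controls, the scaling of the study's methods. It was 0.36 without normalization and 0.48 under the spike-in controls. Which miRNAs stand high or low against this median moved less, and differences are described relative to it below. Scaling by endogenous controls, spike-in controls or the median, and no normalization, differ by a constant per array. Standing against the median is thus identical in these by construction, and every setting below reprocesses the same arrays.

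**Figure D1:**
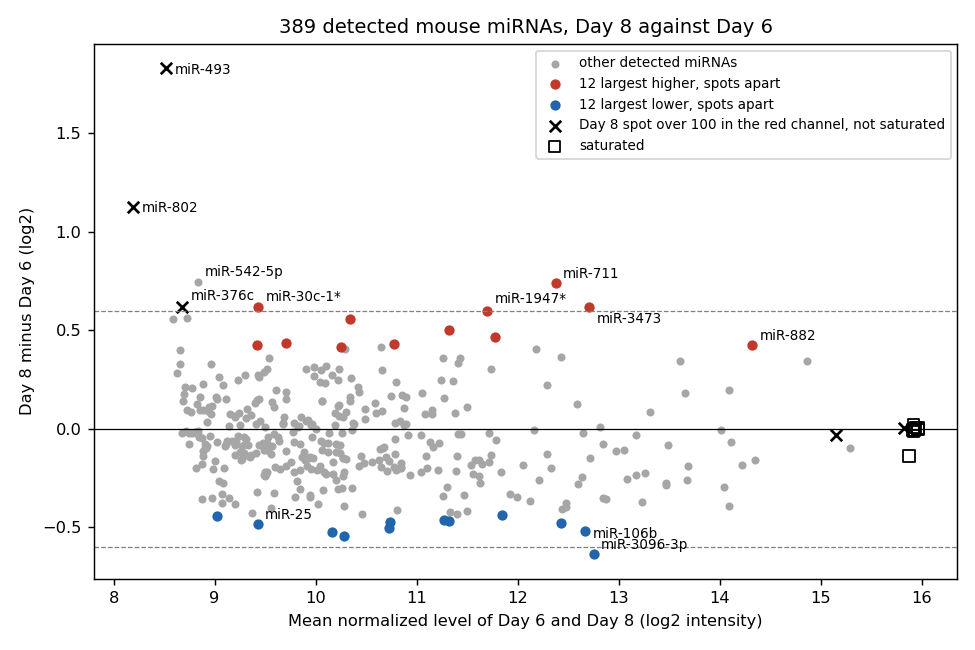
Each point is 1 of the 389 detected mouse miRNAs, with its mean normalized level over both arrays on the x axis and its Day 8 minus Day 6 difference on the y axis, both in log2; dashed lines mark 0.6 in either direction. Most points lie within the lines, the 12 largest differences each way with spots apart are coloured, and the crosses at miR-493, miR-802 and miR-376c each rest on 1 spot.

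The highest difference with spots apart on both arrays above the threshold was that of miR-711. Its signal was 3067 on Day 6 (spots 2914 to 3153) and 7138 on Day 8 (6901 to 7380), a difference of 0.74 ± 0.08. No spot of Day 6 came near those of Day 8, and the signals on Days 2 and 4, 1788 and 3208, were also below. A separate probe named for human miR-711 gave 2440 and 5813, a difference of 0.64 ± 0.07.

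A further 3 miRNAs at 300 or more on both arrays passed 0.6 with all spots apart. The signal of miR-3473 was 4065 on Day 6 and 8633 on Day 8 (0.62 ± 0.05). For miR-30c-1*, the opposite strand of the miR-30c-1 hairpin, it was 324 and 783 (0.62 ± 0.07). That of miR-1947* was 2001 and 4660 (0.60 ± 0.10), the smallest difference past the limit. Its nearest neighbours below the limit were miR-881* and miR-425* at 0.56, both under 300 on Day 6. For miR-711 and these 3, the signal on Day 8 was 2.12 to 2.42 times that on Day 6 before normalization.

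The rest of the 12 largest higher differences lay between 0.42 and 0.56. They were miR-1894-3p (725 and 1588, 0.56 ± 0.09), miR-665 (1576 and 3271, 0.50 ± 0.17), miR-706 (2216 and 4676, 0.47 ± 0.02), miR-3078*, miR-714, miR-210, miR-882 and miR-3095-3p. The hypoxia-responsive miR-210 gave 350 on Day 6 and 714 on Day 8 (0.43 ± 0.11). The brightest of the 12 was miR-882, with 13238 and 27523 (0.43 ± 0.08). Over all 20 settings tried, the 12 kept differences above 0, from 0.39 to 1.31, and stood 0.44 to 0.87 above the median of all detected miRNAs. They were selected as the largest on these same arrays, so these ranges show only how far processing moves them.

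**Figure D2:**
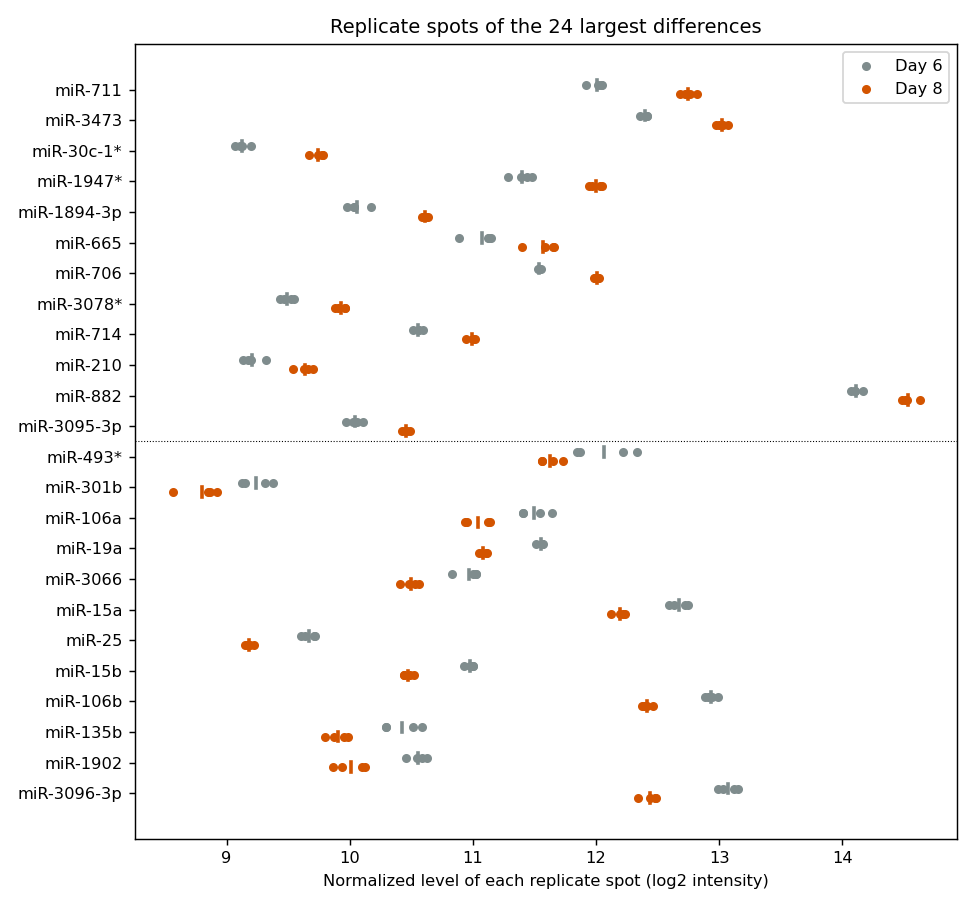
Normalized log2 level of each of the 4 replicate spots on Day 6 (grey) and Day 8 (orange), with a bar at their mean, for the 12 largest higher differences (above the dotted line) and the 12 largest lower ones (below it). The spots of the days are apart in each, as the selection required, and within a miRNA they spread far less than between miRNAs. Without normalization the signals of the lower 12 were nearly equal on both days.

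Probes named for no mouse miRNA were set beside these higher values. Among 39 detected probes named for viral miRNAs alone, 4 (10.3%) were higher on Day 8 by over 0.6 and 0 were lower, with a median difference of 0.14. Of these 4, mghv-miR-M1-9 (-14.1 on Day 6) rests on 1 Day 8 spot of 1344, and mghv-mir-M1-4* was under 300 on Day 6 (230). The clearest was ebv-miR-BART6-3p, with 1426 on Day 6 and 4291 on Day 8 (0.92 ± 0.04), a difference above that of miR-711. Probes named for human or rat miRNAs alone passed 0.6 upward in 14 of 212 (6.60%) and downward in 3 (1.42%). Of the 14, hsa-miR-1267 and hsa-miR-627 each held a Day 8 spot bright in the red channel, which leaves 12, and the mouse count without such spots was 5. Among those 12, hsa-miR-550a* (103), hsa-miR-1272 (120), hsa-miR-373* (126), rno-miR-92a-2* (172) and hsa-miR-193b (225) were under 300 on Day 6. Of the 8 mouse miRNAs past 0.6, 4 were at 300 or more on both arrays. Some human or rat probes name miRNAs that mice also encode, such as miR-711. Differences above 0.3 were seen in 9.51% of mouse, 20.8% of human or rat and 33.3% of viral probes, and differences below -0.3 in 12.6%, 11.8% and 5.13%. The highest of 7 negative control probes gave 93.9 on Day 6 and 117 on Day 8. Binding of other RNA to these probes was not tested, and its part in the higher mouse values was not tested either.

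**Figure D3:**
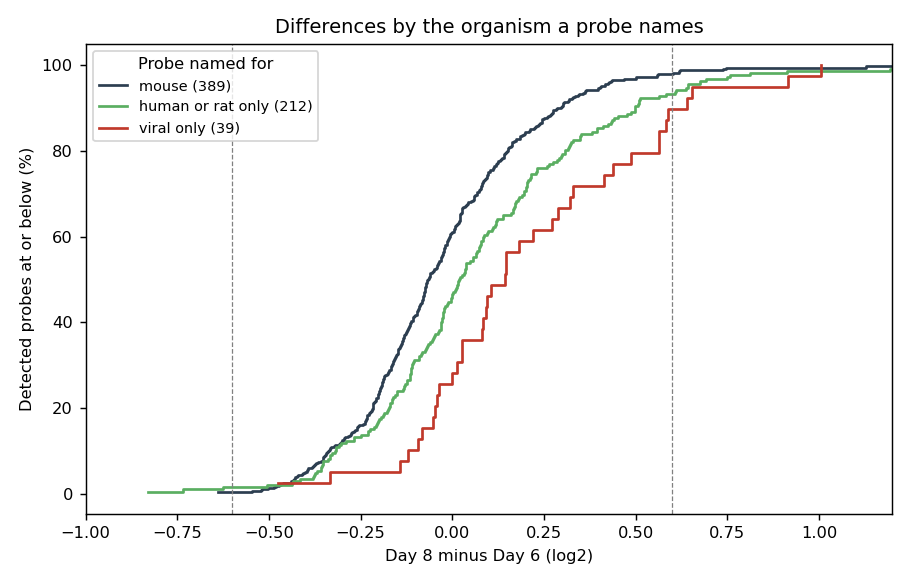
Cumulative share of detected probes (y axis, percent) at or below each Day 8 minus Day 6 difference (x axis, log2) for probes named for mouse miRNAs (389), for human or rat miRNAs alone (212) and for viral miRNAs alone (39). The viral curve lies to the right, with a median of 0.14 against -0.07 for mouse, and a few points beyond the right edge are not drawn.

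Guanine content was compared where a sequence matched by exact name. Over those 98 miRNAs matched by exact name, the 12 with differences above 0.3 had a median guanine share of 38.6%, against 22.7% in the 76 within 0.3 and 29.3% in the 10 below -0.3. Guanine plus cytosine made up a median of 54.5%, 47.7% and 52.4% in the same groups. Across these 98 miRNAs, which share the same pair of arrays and are not independent, the difference correlated with the guanine share at r = 0.36 and with guanine plus cytosine at r = 0.26. The sequences of miR-711 and miR-1894-3p above show runs of guanine, while miR-706, with 13.6% guanine, miR-291a-5p (22.7%) and miR-542-5p (27.3%) do not follow. The 12 are a minority of the 37 miRNAs above 0.3. Of others matched through their arm and left out of these groups, some were low in guanine, with 18.2% in miR-29a, 19.0% in miR-326 and 22.7% in miR-136. More of them were higher in guanine: miR-204* (47.6%), miR-210 and miR-25* (40.9% each), miR-30c-1* (36.4%), miR-425* (33.3%) and miR-214 (31.8%).

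Beyond these, 4 miRNAs passed 0.6 with less behind them. Of these, miR-542-5p was under the threshold on Day 6, with 171 (spots 138 to 205), and gave 494 on Day 8 (428 to 561). Its measured difference was 0.75 ± 0.20, and with the dim array set at the lowest level that is measured well there it was at least 1.07-fold higher. The other strand, miR-542-3p, gave 539 and 637 (-0.19 ± 0.08). The remaining 3, miR-493, miR-802 and miR-376c, rest on 1 Day 8 spot each that was also bright in the red channel of the scanner, where no dye was used. For miR-493 that spot gave 41404, against 21.0 to 138.8 in the other Day 8 spots. For miR-802 it gave 8394 against 18.6 to 49.3, and for miR-376c 2124 against 188 to 195. Without these spots the differences were -0.06, -0.13 and -0.12, and 5 miRNAs in place of 8 were higher by over 0.6.

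Red signal was otherwise found on very bright probes. On Day 8, 40 spots of 13 mouse probes exceeded 100 above background in the red channel, and 8 of these probes were saturated in the Hy3 channel. Those 8 had all their spots above 100 on Day 6 too. The 2 others were miR-690 (52340 on Day 6 and 57199 on Day 8, 0.00 ± 0.03) and miR-491*, whose 1 spot at 116 changed the difference from -0.03 to -0.11. Nearest below the limit were miR-1983 at 91.5 and miR-2137 at 75.4.

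At the other end, 1 miRNA passed -0.6. The signal of miR-3096-3p was 6377 on Day 6 (spots 6005 to 6665) and 6091 on Day 8 (5902 to 6184), a difference of -0.64 ± 0.10. The signals themselves overlapped, while those of most other probes were higher on Day 8, and under spike-in controls the difference was 0.05. Signals of the other 11 of the 12 largest lower differences were also nearly equal on both days, with Day 8 to Day 6 ratios between 0.914 and 1.11. The highest ratio was that of miR-15a, whose signal before normalization was the higher on Day 8 in every spot. Over the 20 settings these 12 ranged from -0.71 to 0.26, being above 0 under spike-in controls. They stood 0.16 to 0.66 below the median of all detected miRNAs in every setting, but were selected as the lowest on these same arrays.

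Of these 12, 6 belong to the miR-17-92 cluster with its paralogues or to the miR-15/16 family, known for repressing cyclins. The list of the miR-17-92 cluster and its paralogues had 12 members on the array. Of these 8 were detected, and all 8 had lower spots apart on Day 8, beside 33.4% of all detected miRNAs. Their median was -0.45 (range -0.52 to -0.23), against -0.07 over all detected, and none passed -0.6. Signals within the cluster were close to equal on both days. They were 5852 and 6054 for miR-106b (-0.52 ± 0.06), 524 and 479 for miR-25 (-0.49 ± 0.06), 2244 and 2239 for miR-19a (-0.47 ± 0.04), and 2165 and 2159 for miR-106a (-0.46 ± 0.16). Likewise they were 1172 and 1186 for miR-20a (-0.43 ± 0.06), 1507 and 1573 for miR-93 (-0.41 ± 0.13), and 1003 and 1057 for miR-17 (-0.39 ± 0.12). The miR-19b signal was 7465 on Day 6 and 8846 on Day 8, the smallest difference of the 8 (-0.23 ± 0.08). The undetected members, miR-18a, miR-18b, miR-20b and miR-92a, gave at most 256 on Day 6 and 276 on Day 8. Probes named for the human miRNA alone, outside this list, were detected for hsa-miR-92a (-0.19), hsa-miR-106a (-0.38) and hsa-miR-18b (-0.50). How far these probes read the mouse miRNAs was not tested. The list median was -0.32 under endogenous controls, 0.03 without normalization and 0.15 under spike-in controls. Relative to the median of all detected miRNAs it lay between -0.42 and -0.33 in all 20 settings. Several of these miRNAs differ by few bases, as the sequences above show, and how far one probe reads another member was not tested.

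The miR-15/16 family divided by member. The 3 whose sequences are shown above were lower after quantile normalization. Their signals were 4965 and 5495 for miR-15a (-0.48 ± 0.09), 1447 and 1409 for miR-15b (-0.50 ± 0.05) and 14463 and 14909 for miR-16 (-0.39 ± 0.10). Neither of the other detected members was lower. The miR-195 signal was 782 and 1178 (0.08 ± 0.11, spots overlapping), and miR-322, under 300 on Day 6, gave 213 and 360 (0.21 ± 0.14). The list median was -0.39, and 0.26 under spike-in controls.

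Other families also had medians below 0 after quantile normalization. In the family of miR-130 and miR-301, 4 of 4 were detected with a median of -0.26, from miR-301b (360 and 334, -0.44 ± 0.20) to miR-130a (13396 and 17684, -0.07 ± 0.39). The let-7 and miR-98 list, miRNAs known to rise as progenitors differentiate, had 9 of 9 detected, with 5 lower (55.6%) and 0 higher with spots apart, beside 33.4% and 20.1% of all detected miRNAs. Its median was -0.29, and 0.31 under spike-in controls. The lowest was let-7b (3840 and 4473, -0.37 ± 0.28) and the highest let-7f (1257 and 1771, 0.03 ± 0.15). In the list of miR-99, miR-100 and miR-125, 5 of 5 were detected and the median was -0.30. Within it miR-99a gave 2342 and 2425 (-0.43 ± 0.02) and miR-125b-5p was saturated. Medians of the lists of miR-181, miR-30, miR-34, miR-26 with miR-103 and miR-107, and miR-222 with miR-221 were -0.19, -0.19, -0.17, -0.11 and -0.11. The list of miR-27, miR-23 and miR-24 had a median of -0.06, close to all detected miRNAs.

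The miR-29 family, which is known to increase during neuronal maturation in mice, was the highest of the 7 seed groups with at least 2 members matched to RefSeq. Families such as let-7, miR-30 and miR-181 are not among these groups. Of the lists, the embryonic stem cell list (0.22) and the astrocyte and mesenchymal list (0.30, 1 detected) had higher medians. Signals were 1800 on Day 6 and 3256 on Day 8 for miR-29a (0.33 ± 0.07, spots apart), 496 and 827 for miR-29c (0.19 ± 0.13) and 813 and 1214 for miR-29b (0.07 ± 0.27). The spots of miR-29b and miR-29c overlapped after normalization. The median of 0.19 remained above 0 in all 20 settings (0.11 to 0.76) and lay 0.17 to 0.33 above that of all detected miRNAs.

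**Figure D4:**
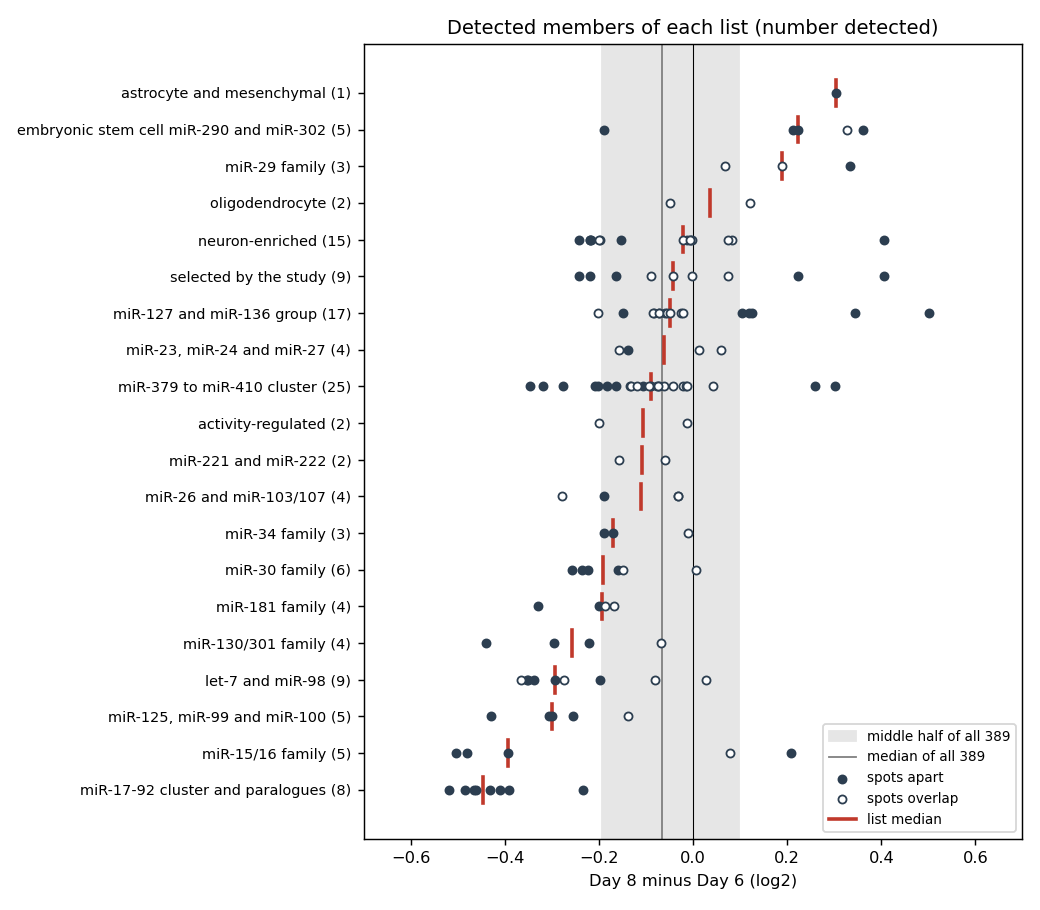
Day 8 minus Day 6 difference (x axis, log2) of each detected member of 20 lists (y axis, number detected in brackets), filled where replicate spots were apart and open where they overlapped, with the list median in red; the grey band runs between the quartiles of all 389 detected miRNAs. The miR-17-92 list lies farthest left (median -0.45, 0.15 under spike-in controls), and miR-493 and miR-376c, which rest on 1 spot, are not drawn.

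After quantile normalization, neuronal miRNAs lay within 0.6 of 0 wherever a difference could be given, as did 380 of all 389 detected miRNAs. Under spike-in controls miR-326 was at 0.99 and miR-218 at 0.68. Both strands of miR-9 and the main strand of miR-124 were saturated on both arrays (miR-124 at 63767 on Day 6 and 63765 on Day 8), so no difference can be given for them. The other strand of the miR-124 hairpin, miR-124*, was not saturated and gave 489 and 574 (-0.22 ± 0.10). Of 19 neuron-enriched miRNAs 15 were detected, with 6 lower (40%, near the 33.4% of all detected) and 1 higher with spots apart, and a median of -0.17 over the 12 that were not saturated. Low members were miR-128 (5234 and 6320, -0.24 ± 0.06), miR-129-5p (2922 and 3614, -0.22 ± 0.09) and miR-137 (1674 and 1974, -0.22 ± 0.10). The member that was higher was miR-326, with 747 and 1432 (0.41 ± 0.14). Of the activity-regulated miRNAs, miR-132, which controls dendrite growth, gave 1414 and 1723 (-0.20 ± 0.20, spots overlapping, though lower on Day 8 at each position). Its seed partner miR-212-3p, outside the list and added after its values were seen, gave 890 and 1045 (-0.26 ± 0.07, spots apart). In miR-134, which limits dendritic spine size, the signals were 224 and 304 (-0.01 ± 0.11).

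Lists of the imprinted miRNA genes of distal chromosome 12, expressed from the maternal allele and abundant in neurons, also had medians near that of all detected miRNAs. In the miR-379 to miR-410 cluster 25 of 44 were detected, 10 lower (40%) and 2 higher with spots apart, beside 33.4% and 20.1% of all detected, with a median of -0.09. Apart from miR-376c, whose 0.62 rests on 1 spot, the extremes were miR-487b (3471 and 4026, -0.35 ± 0.07) and miR-300* (2289 and 4324, 0.30 ± 0.05). The neighbouring miR-127 and miR-136 group had 17 of 22 detected, 1 lower (5.88%) and 5 higher with spots apart, beside the same shares, with a median of -0.05. Its highest members apart from miR-493 were miR-665 and miR-136, the latter with 8171 and 14176 (0.34 ± 0.18). Outside both lists, miR-882 (0.43 ± 0.08) was among the largest higher and miR-493* (-0.44 ± 0.26) among the largest lower differences. The miR-882 locus lies on chromosome 12 between those of miR-136 and miR-369-3p.

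The 10 miRNAs that the study followed up were chosen by it on these samples, so their direction is not independent evidence. Of these, 9 were detected, and after quantile normalization none passed 0.6, as for 380 of all 389 detected miRNAs. The median was -0.07 without the saturated miR-124 (-0.04 with it). Apart from miR-326, miR-128 and miR-129-5p, those with spots apart were miR-290-5p (3466 and 6047, 0.22 ± 0.05) and miR-377 (312 and 377.5, -0.16 ± 0.08). Spots overlapped for miR-218 (0.07 ± 0.23), miR-329 (-0.04 ± 0.20) and miR-495 (-0.09 ± 0.07). Under 300 on both days, miR-203 gave 226 and 202.

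Markers of most other cell types were below the detection threshold on both days, with exceptions among the astrocyte and mesenchymal, oligodendrocyte and embryonic stem cell lists. The astrocyte-enriched miR-143 gave 29.5 and 25.8 and the myeloid miR-223 gave 28.0 and 16.1. None of 6 microglial and leukocyte, 5 endothelial and erythroid, 7 epithelial and 6 muscle and liver miRNAs was detected. The summed signals of these lists were 485 and 498, 495.4 and 442, 611 and 722, and 487 and 550 on Days 6 and 8. Of 6 astrocyte and mesenchymal probes, miR-214 was detected (401 and 738, 0.30 ± 0.06), while miR-145 gave 4.90 and 6.48. The summed signal of that list was 717 and 1190. Of 4 oligodendrocyte miRNAs, miR-338-3p (801 and 1234, 0.12 ± 0.29) and miR-219-5p (264 and 349, -0.05 ± 0.12) were detected, with a summed signal of 1331 and 1895. The embryonic stem cell list had 5 of 16 detected and a median of 0.22. Its highest member above the threshold on both days was miR-302a (1805 and 3331, 0.36 ± 0.07), yet miR-302b, miR-302c and miR-302d, processed from the same transcript, gave 100, 43.3 and 32.8 on Day 8. In pooled bulk RNA, fewer cells of a type and less of a miRNA per cell cannot be told apart.

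Strands of one hairpin did not always differ in the same direction. Among 42 pairs of a named strand and its asterisk strand that were detected and not saturated, the asterisk strand had the higher difference in 22, and the median gap was 0.02. In 5 pairs the strands lay on opposite sides of 0 with all spots apart. That 0 is set by the scaling, and in 4 of the 5 both strands had the higher signal on Day 8 before normalization. The exception was miR-25, at 0.01 under spike-in controls. The widest gap among these was at miR-25, where miR-25 gave 524 and 479 (-0.49 ± 0.06) and miR-25* gave 1573 and 3019 (0.36 ± 0.06). At miR-204 the values were -0.13 ± 0.08 and, for miR-204*, 0.42 ± 0.06 (977 and 1853). At let-7d they were -0.34 ± 0.10 and, for let-7d*, 0.15 ± 0.06. In contrast, miR-708 and miR-708* were both lower, by -0.41 ± 0.05 (4855 and 5615) and -0.38 ± 0.14 (408 and 414).

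**Figure D5:**
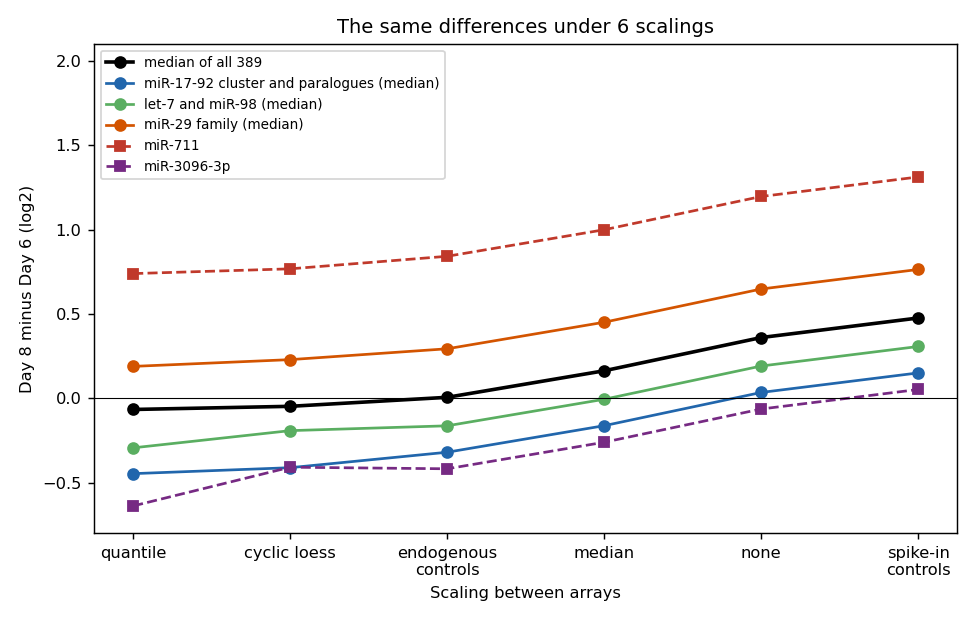
Day 8 minus Day 6 difference (y axis, log2) under 6 ways of scaling the arrays (x axis) for the median of all 389 detected miRNAs, the medians of 3 lists, and miR-711 and miR-3096-3p. The lines move upward together from quantile normalization to spike-in controls, where the miR-17-92 median changes from -0.45 to 0.15. Endogenous, median and spike-in scaling and no normalization differ by a constant per array. Distances from the black line are therefore identical in these by construction, and only quantile normalization and cyclic loess could change the order, which they did not.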

How the data were processed

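The authors hybridised Hy3-labelled pooled RNA to LNA probe arrays (miRBase 16.0 names) and read them on an InnoScan 700 scanner (Mapix 4.5.0). For each of 12312 spots per array, per the file headers, foreground and background intensity in the Hy3 and red channels were recorded, with the percent of saturated pixels, and deposited without normalization. The deposited value table holds background-subtracted intensity, not normalized, and served as an alternative.

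From these, mean foreground values of all spots were corrected by normexp with an offset of 50 in limma 3.58.1 under R 4.3.3, log2 values of all miRNA spots were quantile-normalized over the 4 arrays, and the 4 spots of a probe were averaged. A probe naming any mouse miRNA counted as mouse, and 18 named more than 1. Spots not found by the software were kept. Detection was a mean signal of at least 300 on Day 6 or Day 8. Probes with at least 50% saturated pixels got no fold. For miRNAs below 300 on 1 array, a bound set the bright mean against the higher of the dim probe's own level and the lowest level there among probes with every spot at 300. The precision is limited by 1 array per day, and replicate spots give technical error only. The procedure was tested on simulated data with equal numbers of raised and lowered miRNAs, all above the detection threshold. That test does not cover changes mostly in the same direction or dim probes.

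The members and 24 lists were chosen with earlier results of these data known, so the lists support nothing on their own. Named miRNAs were the 12 largest differences each way with at least 300 on both arrays, under 50% saturation and spots apart, the 5 largest bounds each way, the highest and lowest of each list, miR-124, miR-143, miR-223 and the 10 miRNAs the study selected, with other strands and family members where compared. Probes for other organisms and the red channel values were added as descriptions. The 19 alternatives covered background correction, scaling, filters, spots, saturation and the value table.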

Additional observations from a re-analysis of the deposited data

Results flagged for a closer look

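Signal was found in data outside the mouse probes in the Hy3 channel. Of the probes named for viral miRNAs alone, 4 were higher on Day 8 by over 0.6 and above the negative controls. They were ebv-miR-BART6-3p (0.92), mghv-mir-M1-4* (0.65), hsv1-miR-H18 (0.64) and mghv-miR-M1-9 (1.00 ± 2.00). The last rests on 1 Day 8 spot of 1344, with the lowest Day 8 spot at -19.3. The other 3 had spots apart.

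In the red channel, where no dye was used, 5 mouse probes that were not saturated held a Day 8 spot above 100. The highest such spot gave 2394 for miR-493, 2322 for miR-802, 287 for miR-376c, 138.0 for miR-690 and 116 for miR-491*. For the first 3, the next spot of the same probe gave 3.92, 6.78 and 11.6.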

How the results depend on the processing

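No paired analysis was possible because each day has 1 array and the labels give no replicate numbers. Beside 8 miRNAs higher and 1 lower by over 0.6 (median -0.07), scaling by endogenous controls gave 14 and 0. There were 127 and 0 (median 0.48) under spike-in controls, 28 and 0 (median 0.16) under median scaling, 77 and 0 (median 0.36) without normalization, and 110 and 0 (median 0.41) in the authors' value table. They were 13 and 0 under cyclic loess, 9 and 0 with quantile normalization of the pair alone, and 12 and 4 with background subtraction and a floor of 50. Filters gave 4 and 1 at 300 on both arrays, 8 and 4 at 100 on either, and 9 and 11 with none. The median over spots gave 4 and 1, the last 2 spots 4 and 2, and leaving out spots bright in the red channel on Day 8, or on either day, 5 and 1. Higher calls were 88.9% of all calls, 100% in the scalings with 0 lower, 75% with the floor, 66.7% at 100 on either array or with the last 2 spots, and 45.0% with no filter. The difference of miR-3096-3p was 0.052 under spike-in controls; since signals on both days were nearly equal, its sign follows the scaling. It passed -0.6 in 13 of 20 settings, while miR-711 passed 0.6 in 20, miR-30c-1* and miR-542-5p in 19, and miR-3473 and miR-1947* in 18. Dim probes also limit the comparison, as 50 of the 51 miRNAs measured on 1 array alone were below the threshold on Day 6.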

Other observations

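Most of the miRNAs measured on 1 array alone were close to the threshold. Of 51, 50 passed 300 on Day 8 and 1, miR-26a-2* (303 and 299), on Day 6. With spots apart, the largest bounds on Day 8 after miR-542-5p were at least 1.06-fold for miR-187* (280 and 489) and at least 1.05-fold for miR-3076-3p and miR-92a-2*. The bound for miR-2861 was at least 1.01-fold (241 and 457), and after quantile normalization miR-26a-2* was at least 1.22-fold lower on Day 8. That bound depends on the scaling, as its difference was -0.001 without normalization and 0.11 under spike-in controls.

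Differences were spread a little unevenly over level and position. With detected miRNAs in 4 bins by level, the brightest had a median of -0.14 and the dimmest -0.02. Over the 36 blocks of the array the median difference ranged from -0.18 to 0.10. The 89 detected asterisk strands had a median of -0.02, and 10 of them were above 0.3.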
